A study of Mus musculus with 6 samples.

Results

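The nuclear-encoded subunits of respiratory complexes II to V, with cytochrome c, were examined in the mammary gland of mice given metformin or saline. Members were the features whose symbol was that of a subunit of complex II (Sdha to Sdhd), complex III (the Uqcr genes and Cyc1), complex IV (10 Cox genes) or cytochrome c (Cycs), or began with Atp5, the root of the ATP synthase subunit symbols, pseudogenes left out. This gave 42 of 25160 features under 41 symbols, since Atp5o had 2 features. Of these, 41 passed the filter for low counts and were tested among 15925 features. The remaining one, the second Atp5o feature, had a count of 0 in every mouse. By complex, the tested members were 4 of complex II, 9 of complex III, 10 of complex IV, 17 of complex V and Cycs. The complex V genes Usmg5 and Atpif1 lie outside the symbol rule and are given separately.

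All 6 mice were female FVB/N, an inbred strain without engineered alleles, fed an estrogen-free diet. From 8 to 18 weeks of age, 3 mice were injected into the peritoneum each day with metformin at 200 mg/kg and 3 with saline. Poly(A) RNA of the fourth pair of glands, lymph nodes removed, was sequenced as whole tissue with 1 library per mouse. A gland of this kind holds adipocytes, stroma, vessels and, next to it, muscle beside epithelium, and in such bulk RNA fewer cells of a type and less RNA per cell cannot be told apart. Total counts per library lay between 35375365 and 47370885. Values of 3 mice are given in the order of mouse 1, 2 and 3 of the group, with the control group first.

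Complex II passes electrons from succinate to ubiquinone, complex III passes them on to cytochrome c, and complex IV passes them from cytochrome c to oxygen. Complexes III and IV pump protons across the inner mitochondrial membrane, and complex V, the ATP synthase, uses their return to make ATP. Complex II is made only of nuclear gene products, while complexes III, IV and V also hold subunits encoded in mitochondrial DNA. Metformin is best known in this context as an inhibitor of complex I, which lies upstream of complex III. Brown adipocytes, which make heat through Ucp1, and striated muscle are rich in these complexes.

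Promoter sequence was compared as a feature that the symbol rule did not use. The 250 bases before the RefSeq start were found for 32 of the 41 symbols. They were searched on both strands for GCATGCG, a core of the site bound by the transcription factor NRF1, and CCGGAAG, a site of the ETS family to which GABPA belongs. These motifs do not overlap one another in sequence. GCATGCG was present in 7 of the 32 genes (21.9%), against 4.24% of 17492 protein-coding genes. CCGGAAG was present in 9 of the 32 (28.1%), against 10.2%. At least 1 of the motifs was found in 13 members (40.6%), against 13.7% of all, and both were found in Atp5j, Atp5l and Cox6a1. The windows searched were not cut where GENCODE starts the gene, and some matches, such as CCGGAAG in Cox6a1, lie past that start. A match is a run of letters and does not show that a factor bound there. The other members, Atp5a1, Atp5mpl, Cox4i1, Cox6c, Cyc1, Sdhc, Uqcrb, Uqcrc2 and Uqcrq, were not searched.

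To show what these matches look like, 1 promoter is given for each complex and for cytochrome c, chosen after the matches were seen. All are 5' to 3' on the minus strand of GRCm38.p6, cut where GENCODE starts the gene, with each motif and its overlapping copies on the other strand in capitals. They are Sdhd (chr9:50603850-50604099), Uqcr11 (chr10:80406831-80407071), Cycs (chr6:50566570-50566819), Cox6a1 (chr5:115348982-115349208) and Atp5l (chr9:44920743-44920992). Sdhd and Uqcr11 carry the ETS letters, Cycs and the stretch shown of Cox6a1 the NRF1 core, and Atp5l both.
Sdhd: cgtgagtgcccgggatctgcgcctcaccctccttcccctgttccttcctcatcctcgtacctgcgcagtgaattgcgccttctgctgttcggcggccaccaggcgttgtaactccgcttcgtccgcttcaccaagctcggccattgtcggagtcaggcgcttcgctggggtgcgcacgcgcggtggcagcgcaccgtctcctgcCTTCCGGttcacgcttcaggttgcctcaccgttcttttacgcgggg
Uqcr11: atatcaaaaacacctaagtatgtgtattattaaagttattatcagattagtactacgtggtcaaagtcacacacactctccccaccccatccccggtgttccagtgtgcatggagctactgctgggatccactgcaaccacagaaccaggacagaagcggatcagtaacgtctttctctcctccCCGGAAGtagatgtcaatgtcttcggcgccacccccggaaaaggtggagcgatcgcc
Cycs: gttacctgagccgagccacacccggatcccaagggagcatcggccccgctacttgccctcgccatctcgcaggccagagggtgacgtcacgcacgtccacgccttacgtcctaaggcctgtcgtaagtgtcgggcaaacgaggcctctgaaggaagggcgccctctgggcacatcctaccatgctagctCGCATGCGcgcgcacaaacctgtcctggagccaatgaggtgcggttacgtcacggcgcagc
Cox6a1: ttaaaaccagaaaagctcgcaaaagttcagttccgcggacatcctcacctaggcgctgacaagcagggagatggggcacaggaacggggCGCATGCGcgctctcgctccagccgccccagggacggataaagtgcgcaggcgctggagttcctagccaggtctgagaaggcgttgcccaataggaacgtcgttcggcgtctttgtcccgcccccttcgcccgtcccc
Atp5l: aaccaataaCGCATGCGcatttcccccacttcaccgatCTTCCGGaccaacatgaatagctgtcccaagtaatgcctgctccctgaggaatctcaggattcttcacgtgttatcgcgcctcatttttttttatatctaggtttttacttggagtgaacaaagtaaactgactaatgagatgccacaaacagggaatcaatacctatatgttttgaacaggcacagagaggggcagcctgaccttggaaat

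The transcript levels of these members differed widely between mice of the same group. Metformin-treated mouse 2 had the highest CPM (counts scaled to the TMM-normalized library size) of all 6 mice in 41 of 41 members. Control mouse 1 ranked second in 38 of them and stood above both other metformin-treated mice in the same number, while control mouse 3 was lowest in 31. The summed CPM of the members was 22100, 11600 and 10600 in the control and 13400, 27500 and 16700 in the metformin group. The control and metformin groups therefore overlapped, with control mouse 1 second among the 6. Across the mice, the highest level of a member was 1.86 (Atp5s) to 7.83 (Atp5e) times the lowest, with a median of 2.95 times.

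**Figure D1:**
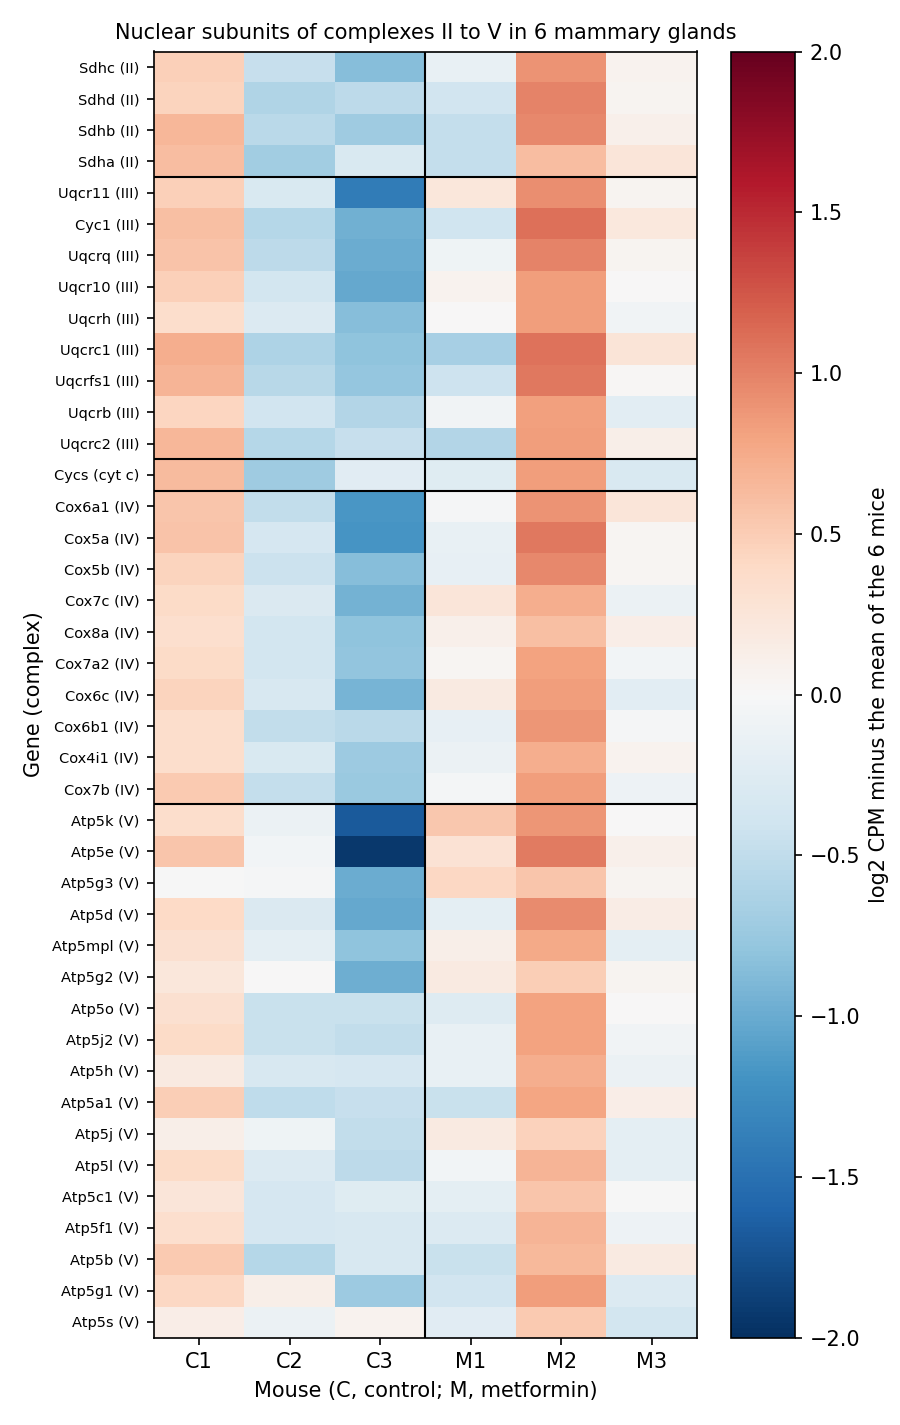
Level of each tested member in each mouse, as log2 CPM minus the mean of the 6 mice, with genes in rows by complex and mice in columns (C, control; M, metformin). Metformin-treated mouse 2 (M2) is the highest in all 41 members, control mouse 1 (C1) the second in 38, and control mouse 3 (C3) the lowest in 31.

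Compared with the control group, the metformin group had a log2 fold change above 0 in 40 of 41 members, beside 51.3% of all features tested. The median over the members was 0.43, beside 0.01 over all features, and with limma-voom it was 0.14, with 30 of 41 members above 0. In edgeR the estimates ran from -0.01 for Atp5s to 0.77 for Atp5k. Of the 41 members, 6 were at least 1.5-fold higher by estimate (6.47% of all features), namely Atp5k, Atp5e, Uqcr11, Atp5g3, Cox6a1 and Cyc1. By the edgeR quasi-likelihood test, no member had an adjusted p under 0.05, which 0% of all features had. None met the criteria the study used for differential expression, an unadjusted p under 0.01 together with a 1.5-fold difference or more, which 1.7% of all features met (0.421% higher and 1.28% lower in the metformin group). None had an unadjusted p under 0.05 (7.53% of all features, 2.68% higher and 4.85% lower), and the smallest was 0.0738 for Atp5g3. DESeq2 gave 1 member, Atp5g3, an unadjusted p under 0.05, higher in the metformin group (3.17% of all features in that direction). With limma-voom 0 members had one (4.08% of all features were higher at this p). Neither gave any member an adjusted p under 0.05, which 200 of all features had with DESeq2 and 0 with limma-voom. The standard errors on the log2 scale were 0.24 to 0.56, and the 95% interval of each of the 41 members held both 0 and a 1.5-fold increase. Since members of a complex move together from mouse to mouse, their shared sign is not a set of independent observations.

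The number of members near the threshold depended on single mice. Without control mouse 1, 14 members had an unadjusted p under 0.05, all higher in the metformin group (3.14% of all features in that direction), of which 8 belong to complex IV, 4 to complex III and 1 each to complexes II and V, with an adjusted p of 0.673. Without metformin-treated mouse 2, none did, and only 26 of 41 members had an estimate above 0. The medians of complexes II, III, IV and V were then -0.03, 0.09, 0.15 and 0.02, and the estimates of Sdha, Sdhb, Sdhd, Uqcrc1, Cycs, Atp5b and Atp5g1 lay between -0.33 and -0.01. Both of these mice were then left out together, a choice made after the values were seen. In that fit 39 of 41 estimates were above 0 (47.6% of all features), and the median of the members was 0.48. The 3 members Uqcr10, Uqcrq and Cox6a1 had an unadjusted p under 0.05 (1.67% of all features in that direction) and an adjusted p of 0.961.

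**Figure D2:**
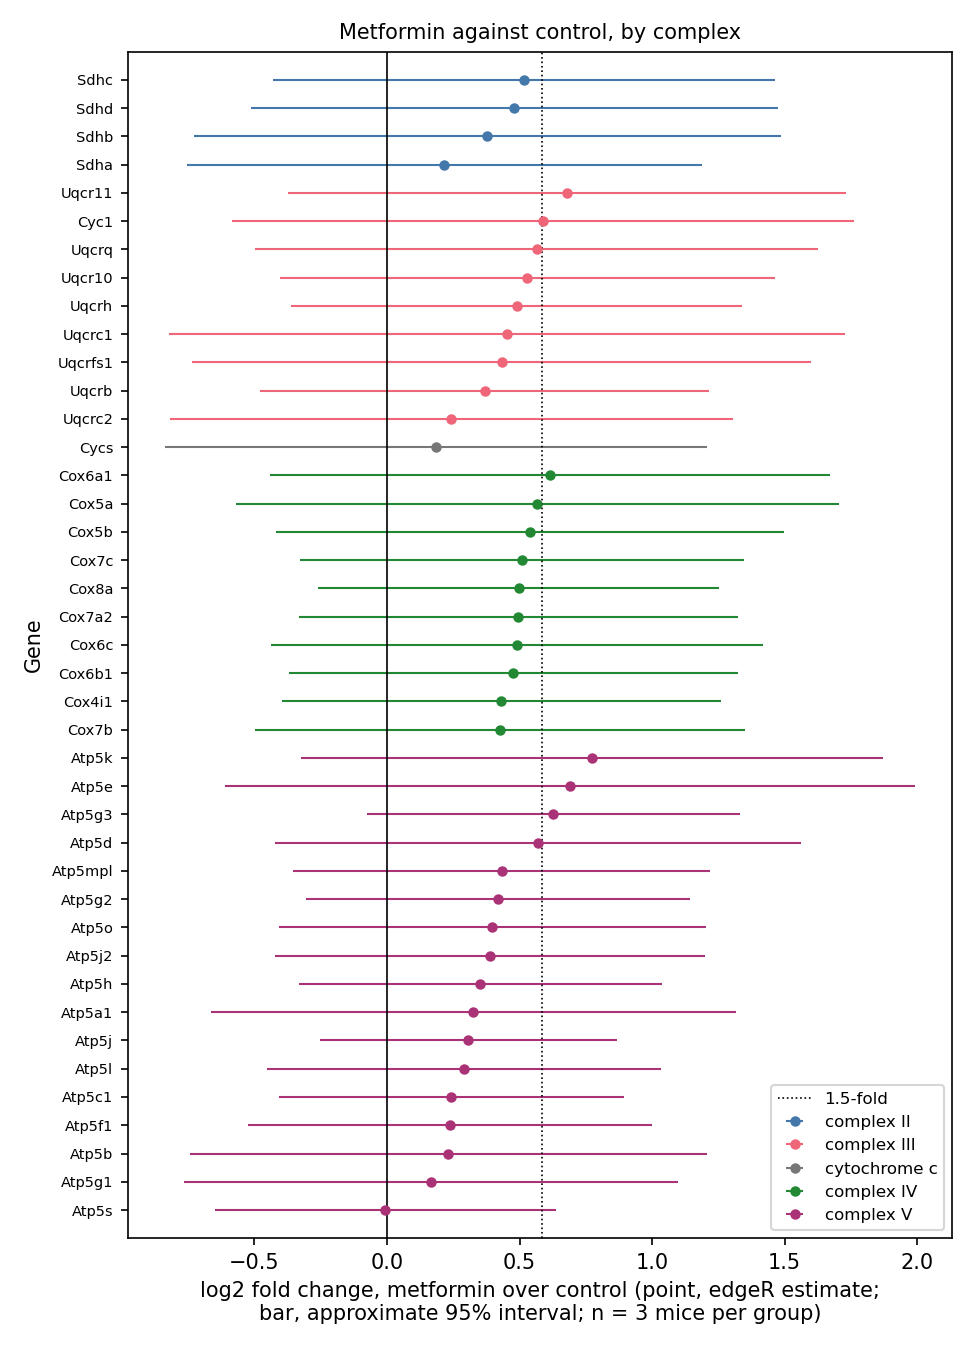
Log2 fold change of each tested member, metformin over control (3 mice per group), with points for the edgeR estimate and bars for the approximate 95% interval, coloured by complex. The interval of every member spans 0 and reaches past the dotted line at 1.5-fold, and 40 of the 41 points lie above 0.

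Complex II (succinate dehydrogenase) had a median log2 fold change of 0.43, with 4 of 4 estimates above 0. With limma-voom the median was 0.01, and Sdha and Sdhb had estimates of -0.08 and -0.06. Sdha carries the flavin at which succinate is oxidised. Its CPM was 1300, 525 and 683 in the control and 612, 1300 and 997 in the metformin group, a log2 fold change of 0.22 ± 0.42 (SE, edgeR adjusted p = 0.913). Control mouse 1 was close to metformin-treated mouse 2, and the groups overlapped. Sdhb holds the iron-sulfur clusters that take the electrons on, and its CPM was 562, 244 and 218 in the control and 257, 693 and 381 in the metformin group (0.38 ± 0.48, edgeR adjusted p = 0.861). Only metformin-treated mouse 2 exceeded all controls.

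Sdhc and Sdhd anchor complex II in the membrane and bind ubiquinone. Sdhc was measured at 304, 159 and 122 CPM in the control and 197, 409 and 231 in the metformin group (log2 fold change 0.52 ± 0.41, edgeR adjusted p = 0.792). Sdhd gave 418, 201 and 213 against 235, 610 and 316 CPM (0.48 ± 0.43, edgeR adjusted p = 0.806). In both anchors metformin-treated mouse 1 stood above control mice 2 and 3 and below control mouse 1. Per length, in FPKM, Sdhb was the most abundant (310), followed by Sdha (284), Sdhd (244) and Sdhc (68.0). Sdhd was above Sdhc in 6 of 6 mice, whereas Sdhb and Sdha kept their order in 4, and Sdha and Sdhd in 5.

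Complex III (ubiquinol-cytochrome c reductase) had a median log2 fold change of 0.49, with 9 of 9 estimates above 0 and 2 of 9 at least 1.5-fold, and a median of 0.12 with limma-voom. Its small subunits came nearest to the threshold. Uqcr11, the smallest subunit, had a CPM of 149, 87.1 and 40.9 in the control and 126, 205 and 112 in the metformin group, a log2 fold change of 0.68 ± 0.45 (edgeR adjusted p = 0.767). Uqcrh, the hinge protein that helps cytochrome c1 meet cytochrome c, had 270, 175 and 118 against 213, 376 and 201 CPM (0.49 ± 0.37, edgeR adjusted p = 0.785). In both genes, 3 of 3 metformin-treated mice lay above control mice 2 and 3, and control mouse 1 lay inside the metformin range.

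The small subunits Uqcr10 and Uqcrq showed a similar order of mice. Uqcr10 was at 180, 101 and 63.6 CPM in the control and 136, 232 and 130 in the metformin group (log2 fold change 0.53 ± 0.40, edgeR adjusted p = 0.786). Uqcrq, which contacts cytochrome b, was at 341, 159 and 115 against 216, 456 and 238 CPM (0.57 ± 0.46, edgeR adjusted p = 0.797). Control mouse 1 again stood within the metformin range, and the other controls below it.

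The core and catalytic subunits of complex III and Uqcrb had estimates between 0.24 and 0.59. Uqcrc1, a core protein on the matrix side, had 1020, 402 and 352 CPM in the control and 388, 1310 and 732 in the metformin group (log2 fold change 0.45 ± 0.55, edgeR adjusted p = 0.857, and -0.07 with limma-voom). Metformin-treated mouse 1 was here below control mouse 2. The other core protein, Uqcrc2, gave 0.24, the Rieske iron-sulfur protein Uqcrfs1 0.43, cytochrome c1 (Cyc1) 0.59 and Uqcrb 0.37. In FPKM the complex III members lay between 184 (Uqcrq) and 382 (Uqcrc1), and only 1 of 8 neighbouring pairs in this order, Uqcr11 above Uqcrq, kept it in 6 of 6 mice.

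Cytochrome c (Cycs), the carrier between complexes III and IV that also takes part in apoptosis, had 738, 289 and 407 CPM in the control and 401, 845 and 385 in the metformin group. Metformin-treated mice 1 and 3 were both below control mouse 3, and the log2 fold change was 0.19 ± 0.44 (edgeR adjusted p = 0.932). Without metformin-treated mouse 2 the estimate was -0.28, and with limma-voom it was -0.13. The only gene with a similar transcript among the counted features, Gm10053, held 6.9% of the counts of the pair. How reads were divided between the 2 genes is not given in the sources used here.

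Complex IV (cytochrome c oxidase) had the narrowest range of estimates among the complexes, from 0.43 to 0.61 in 10 of 10 members, with a median log2 fold change of 0.50 (0.17 with limma-voom). Control mouse 3 was the lowest, control mouse 2 the next, control mouse 1 the second highest and metformin-treated mouse 2 the highest in each of the 10. Cox4i1 is the ubiquitous form of the subunit through which ATP and ADP regulate the enzyme. It had 970, 621 and 460 CPM in the control and 705, 1260 and 802 in the metformin group (0.43 ± 0.36, edgeR adjusted p = 0.798). Cox6a1, the non-muscle form of its subunit, had 609, 295 and 185 against 406, 771 and 491 CPM (0.61 ± 0.45, edgeR adjusted p = 0.783). In both, control mouse 1 was exceeded only by metformin-treated mouse 2.

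Beside Cox6a1, 3 further small membrane subunits had the smallest p of complex IV. Cox8a was at 528, 324 and 238 CPM in the control and 446, 635 and 456 in the metformin group (log2 fold change 0.50 ± 0.33, edgeR adjusted p = 0.766). Cox7c was at 203, 127 and 80.7 against 183, 257 and 144 CPM (0.51 ± 0.36, edgeR adjusted p = 0.776). Cox7a2, the more widely made form of its subunit, was at 211, 125 and 94.0 against 167, 284 and 156 CPM (0.50 ± 0.36, edgeR adjusted p = 0.779). The groups overlapped in each through control mouse 1 alone. Cox5a, Cox5b, Cox6b1, Cox6c and Cox7b had estimates from 0.43 to 0.57. Similar transcripts in the table, of Gm11273 for Cox5b and of Emc8 for Cox4i1, held 11.1% and 6.4% of the counts of each pair. In FPKM, Cox4i1 was the most abundant (980) and Cox7b the least (215), and 4 of 9 neighbouring pairs kept their order in 6 of 6 mice.

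Complex V was the most varied, with a median log2 fold change of 0.35 (0.09 with limma-voom) over 17 members and a range from -0.01 to 0.77. By part of the enzyme, the medians were 0.42 for the c ring (3 genes), 0.41 for the small membrane subunits (4 genes), 0.33 for the F1 head and central stalk (5 genes) and 0.33 for the peripheral stalk (4 genes). The ring of c subunits turns as protons pass, and Atp5g1, Atp5g2 and Atp5g3 encode the same mature c protein behind different import sequences. Atp5g3 had 340, 335 and 172 CPM in the control and 454, 499 and 355 in the metformin group. Each metformin-treated mouse was above each control. Such a separation held for 1 of 41 members (6.24% of all features in this direction) and in the opposite direction for none (7.01%). Its log2 fold change was 0.63 ± 0.30 (edgeR adjusted p = 0.707), and it stayed between 0.37 and 0.78 when each mouse was left out in turn.

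The other c-subunit genes did not separate the groups. Atp5g2 had 163, 140 and 70.1 CPM in the control and 158, 196 and 144 in the metformin group (log2 fold change 0.42 ± 0.31, edgeR adjusted p = 0.784). Atp5g1 had 132, 107 and 60.0 against 76.0, 177 and 81.9 CPM (0.17 ± 0.40, edgeR adjusted p = 0.934). For Atp5g1, metformin-treated mice 1 and 3 were below control mice 1 and 2, and its estimate was -0.33 without metformin-treated mouse 2 and -0.22 with limma-voom. Of the summed c-subunit FPKM, Atp5g3 made up 53.6, 55.9 and 58.9% in the control and 65.3, 57.0 and 60.2% in the metformin group, so the shares overlapped.

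The F1 head carries the catalytic sites. Atp5b, the catalytic beta subunit, had 3830, 1780 and 2140 CPM in the control and 1950, 4160 and 3010 in the metformin group (log2 fold change 0.23 ± 0.42, edgeR adjusted p = 0.906). Metformin-treated mouse 1 lay below control mouse 3, and limma-voom gave an estimate of -0.07. Atp5d, the delta subunit of the central stalk, had 497, 308 and 184 against 329, 726 and 416 CPM (0.57 ± 0.43, edgeR adjusted p = 0.785). The alpha subunit Atp5a1 gave 0.33 and the gamma subunit Atp5c1 0.24. Atp5e, the epsilon subunit, was singled out after its values were seen, for the widest range among mice. Its CPM was 194, 127 and 34.6 in the control and 162, 271 and 142 in the metformin group (0.69 ± 0.56, edgeR adjusted p = 0.797), with control mouse 3 far below the rest.

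Atp5k, the e subunit of the membrane part, where ATP synthases join as dimers, had the highest estimate. Its CPM was 33.5, 24.2 and 8.14 in the control and 37.9, 48.4 and 26.3 in the metformin group (log2 fold change 0.77 ± 0.47, edgeR adjusted p = 0.758). Control mouse 1 stood above metformin-treated mouse 3, and control mouse 3 was again the lowest. The other membrane subunits, Atp5j2, Atp5l and Atp5mpl, gave 0.39, 0.29 and 0.43. The peripheral stalk, which holds the head still against the turning ring, had estimates of 0.40 for Atp5o, 0.35 for Atp5h, 0.31 for Atp5j and 0.24 for Atp5f1. A transcript of Wdr77 shares sequence with Atp5f1, and Wdr77 held 8.42% of the counts of the pair.

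Atp5s (factor B), listed by RefSeq as Dmac2l, was the only member without an estimate above 0 and was singled out for it. It had 9.56, 8.09 and 9.17 CPM in the control and 7.42, 12.5 and 6.73 in the metformin group (log2 fold change -0.01 ± 0.28, edgeR adjusted p = 0.999). It was also the least abundant member, with a mean FPKM of 5.96 against 1340 for Atp5b at the top of complex V. Outside the symbol rule, the small membrane subunit Usmg5 had 83.2, 51.1 and 41.6 against 70.2, 111 and 55.4 CPM (0.43 ± 0.33, edgeR adjusted p = 0.790). Atpif1, the inhibitor of the ATP hydrolysis of complex V, had 33.2, 45.9 and 19.1 against 33.3, 20.5 and 25.7 CPM (-0.31 ± 0.33, edgeR adjusted p = 0.840). Unlike in the 41 members, metformin-treated mouse 2 was not the highest for Atpif1.

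Tissue-restricted isoforms of complex IV and related genes were next compared, of which 8 of 11 were tested and had estimates above 0 (median 0.51) without any at an unadjusted p under 0.05. Cox7a1 and Cox8b are forms of muscle, heart and brown fat, and both are also among the brown fat markers used here. Cox7a1 had 98.0, 30.4 and 16.1 CPM in the control and 22.4, 133 and 49.7 in the metformin group (log2 fold change 0.51, edgeR adjusted p = 0.886). Cox8b had 168, 54.9 and 26.7 against 57.8, 246 and 99.6 CPM (0.70, edgeR adjusted p = 0.837). As for the members, metformin-treated mouse 2 and control mouse 1 were the highest.

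Shares of the FPKM of each subunit pair showed this shift of isoform between mice. Cox7a1 made up 43.4, 28.5 and 21.9% of Cox7a1 and Cox7a2 in the control and 18.1, 43.6 and 34.5% in the metformin group. Cox8b made up 32.5, 20.4 and 14.5% of Cox8a and Cox8b against 16.4, 37.0 and 24.9%. Both shares were high in control mouse 1 and metformin-treated mouse 2. Cox6a2, the striated muscle form, made up 16.7, 22.7 and 23.3% of Cox6a1 and Cox6a2 in the control and 13.4, 16.2 and 14.2% in the metformin group. Here each control was above each metformin-treated mouse, and with 3 against 3 mice an exact permutation test cannot go below 0.1. The CPM of Cox6a2 itself overlapped, at 146, 104 and 67.0 against 74.7, 178 and 97.1.

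**Figure D3:**
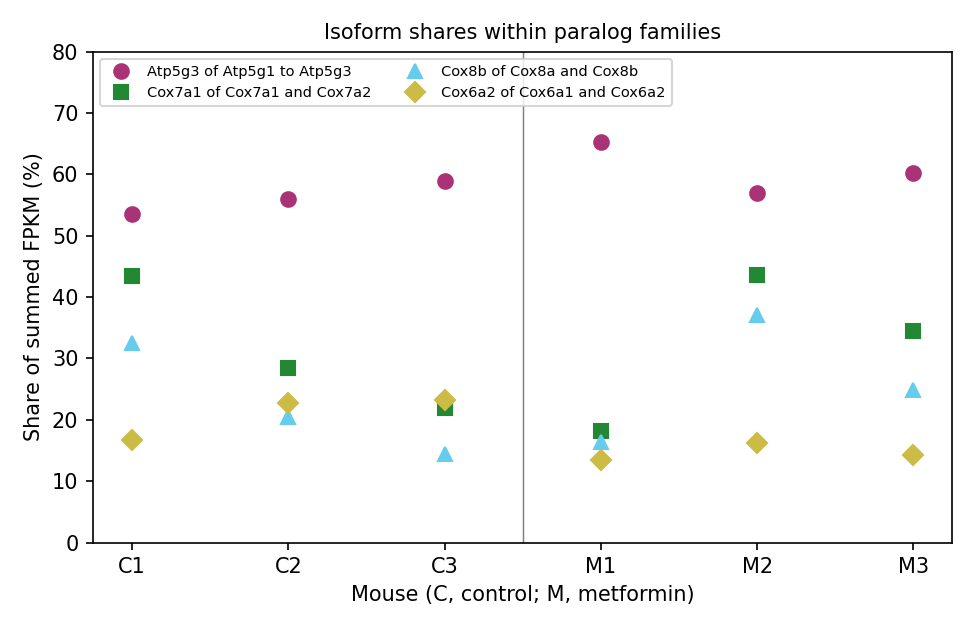
Share of each isoform in the summed FPKM of its subunit family (percent, 1 point per gene and mouse; C, control; M, metformin). The Cox7a1 and Cox8b shares are highest in C1 and M2, the Cox6a2 share is 16.7% or more in the controls and 16.2% or less in the metformin group, and the Atp5g3 share overlaps.

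Among the remaining isoforms, 3 separated the groups at low levels. Cox4i2, an oxygen-responsive form of Cox4i1, had 3.23, 3.19 and 1.98 CPM in the control and 4.62, 4.23 and 3.73 in the metformin group (log2 fold change 0.58, edgeR adjusted p = 0.724). Cox6b2, known from testis, had 1.67, 1.49 and 1.47 against 2.05, 3.25 and 1.98 CPM (0.65, edgeR adjusted p = 0.726). Ndufa4l2, a hypoxia-induced relative of Ndufa4, had 9.47, 8.85 and 6.13 against 10.4, 12.2 and 9.91 CPM (0.41, edgeR adjusted p = 0.735). In these 3 of the 8 tested isoforms each metformin-treated mouse was above each control, beside 6.24% of all features. Ndufa4, a complex IV subunit despite its name, had 391, 216 and 164 against 280, 517 and 296 CPM (0.50). Cox7a2l, which joins complexes III and IV into supercomplexes, had 143, 120 and 108 against 117, 167 and 116 CPM (0.11), so that the groups overlapped in both.

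Other genes of the pathway were compared in the same fit. Complex I, the entry point of electrons from NADH, had 36 of 36 tested nuclear subunits above 0, with a median log2 fold change of 0.50 and none at an unadjusted p under 0.05. Its smallest p values belonged to Ndufa7, with 106, 78.6 and 52.0 CPM in the control and 106, 154 and 103 in the metformin group, and Ndufb3, with 106, 68.3 and 50.6 against 105, 157 and 85.5 CPM. Their log2 fold changes were 0.62 and 0.63 (edgeR adjusted p = 0.692 and 0.724). By the median of these nuclear subunits, the mice stood in the same order as for complexes II to V.

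The subunits encoded in mitochondrial DNA did not follow metformin-treated mouse 3 in the same way. The 6 genes for complexes III, IV and V summed to 112000, 69000 and 77600 CPM in the control and 92400, 137000 and 53100 in the metformin group. Metformin-treated mouse 3 was thus the lowest of the 6 mice, whereas its nuclear members stood near their mean, at a median log2 level of 0.02 relative to the 6 mice. The median log2 fold change of the 6 genes was 0.14 (6 of 6 above 0). For mt-Co3 the CPM was 12200, 7450 and 8380 against 9410, 16000 and 6060, and for mt-Co2 10000, 6120 and 6000 against 8870, 12000 and 4100, both being catalytic core subunits of complex IV (edgeR adjusted p = 0.944 for both). Mitochondrial transcripts enter an oligo(dT) library through their short poly(A) tails.

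Assembly factors, which build the complexes without staying in them, had medians between 0.21 and 0.33. For complex II, 3 of 4 were above 0 (median 0.33), including Sdhaf4 with 18.3, 13.5 and 8.73 against 15.2, 29.4 and 13.9 CPM and Sdhaf1 with 23.7, 17.5 and 14.2 against 22.5, 33.0 and 22.3 CPM. For complex III, 6 of 6 were above 0 (median 0.21), with Uqcc2 at 35.7, 28 and 15.7 against 34.7, 42.6 and 26.9 CPM and Uqcc3 at 32.5, 29.8 and 17.8 against 34.4, 44.3 and 26.4 CPM. The groups overlapped in each of these. For complex IV, 21 of 21 tested factors were above 0 (median 0.31), and Cmc1, which takes part in the early maturation of Cox1, was 1 of 21 at an unadjusted p under 0.05, beside 2.68% of all features in this direction.

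Cmc1 had 20.2, 15.4 and 14.0 CPM in the control and 26.3, 28.5 and 18.7 in the metformin group (log2 fold change 0.57 ± 0.22, edgeR adjusted p = 0.642). Control mouse 1 was above metformin-treated mouse 3. Cox18, which helps insert Cox2 into the membrane, had 25.1, 19.8 and 14.4 against 24.0, 33.6 and 25.3 CPM (0.48). For complex V, 4 of 4 were above 0 (median 0.28), with Atpaf2 at 99.8, 50.2 and 61.5 against 64.5, 141 and 82.2 CPM and Tmem242 at 116, 75.9 and 63.0 against 89.6, 145 and 90.4 CPM. Control mouse 1 lay inside the metformin range in all 4 of these genes.

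Regulators of mitochondrial genes were divided, with 7 of 12 above 0 and 5 below and none at an unadjusted p under 0.05. Esrra, a nuclear receptor that activates respiratory genes, had 106, 67.3 and 37.6 CPM in the control and 70.1, 166 and 81.0 in the metformin group (log2 fold change 0.59). It followed the members, with metformin-treated mouse 2 highest and control mouse 3 lowest. Gabpb1, a partner of GABPA, had 16.0, 17.8 and 17.1 against 14.9, 16.2 and 13.3 CPM (-0.20), and Nrf1 had 16.3, 17.2 and 15.5 against 15.5, 15.8 and 15.8 CPM (-0.06). Both were nearly even over the 6 mice. Gabpa itself was less even, with 64.0, 47.2 and 61.2 against 44.9, 63.4 and 38.7 CPM (-0.23).

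Among markers of other cells in the gland, the sum of those of brown fat was highest in the same mice as the members. The 10 brown fat markers, all 10 tested, summed to 3320, 609 and 695 CPM in the control and 376, 5590 and 1560 in the metformin group, and Ucp1, singled out as the defining marker, had 1540, 188 and 244 against 55.7, 3410 and 630 CPM. The 3 highest sums thus belonged to the mice with the 3 highest member sums, metformin-treated mouse 2, control mouse 1 and metformin-treated mouse 3, whereas metformin-treated mouse 1 was the lowest for brown fat but above control mice 2 and 3 for the members. None of the 10 is at 0 in any mouse, and 8 of 10 had a log2 fold change above 0 (median 0.47), with no unadjusted p under 0.05. Dio2, which activates thyroid hormone, and Ppargc1a, a coactivator of mitochondrial genes, had the smallest p of this list, with log2 fold changes of 0.91 and -0.25 (edgeR adjusted p = 0.767 and 0.836). Neither followed the order of the sum. Dio2 had 7.40, 1.53 and 5.30 against 8.34, 14.1 and 4.10 CPM, with metformin-treated mouse 1 above control mouse 1. Ppargc1a had 19.6, 11.9 and 18.4 against 11.8, 18.1 and 12.0 CPM, highest in control mice 1 and 3. The part of brown fat in the levels of the members was not tested.

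Skeletal muscle markers (10 of 10 tested) summed to between 17500 and 19900 CPM in the control and 14700, 30700 and 22100 in the metformin group, again highest in metformin-treated mouse 2, and 8 of 10 were above 0. Ckm, the muscle creatine kinase, had 2400, 2070 and 2130 against 1980, 4280 and 2920 CPM, and Tnni2, a fast troponin, 802, 804 and 578 against 734, 1250 and 847 CPM. General adipocyte markers (10 of 10) summed to 15200 to 17600 CPM in the control and 18500 to 24200 in the metformin group, with 10 of 10 above 0. Plin1, which coats lipid droplets, had 778, 678 and 1020 against 1180, 1340 and 1200 CPM (unadjusted p under 0.05, edgeR adjusted p = 0.661), and Cidec, which enlarges them, 1160, 823 and 1190 against 1480, 1750 and 1450 CPM. In Plin1 and Cidec, 2 of the 10 adipocyte markers, each control was below each metformin-treated mouse. This held for 1 of 41 members, Atp5g3, and for 6.24% of all features. The groups overlapped in the other adipocyte markers.

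Epithelial markers summed to 910, 1700 and 946 CPM in the control and 980, 632 and 778 in the metformin group, with 9 of 10 below 0. Cdh1 (E-cadherin) fell by 0.85 on the log2 scale (edgeR adjusted p = 0.541) and met the criteria of the study, and Epcam had an estimate of -0.93. Milk genes, 8 of 10 tested, were below 0 in 8 of 8, with Btn1a1, Csn3, Lalba and Csn1s1 meeting the same criteria, and summed to 42100, 38300 and 1200 CPM in the control and 837 to 1600 in the metformin group. The milk sum of control mouse 3 thus lay within the range of the metformin group. Endothelial markers lay between 576 and 738 CPM in sum and leukocyte markers between 103 and 285, with neither list shifted to 1 side. The part of these cells in the levels of the members was not tested.

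**Figure D4:**
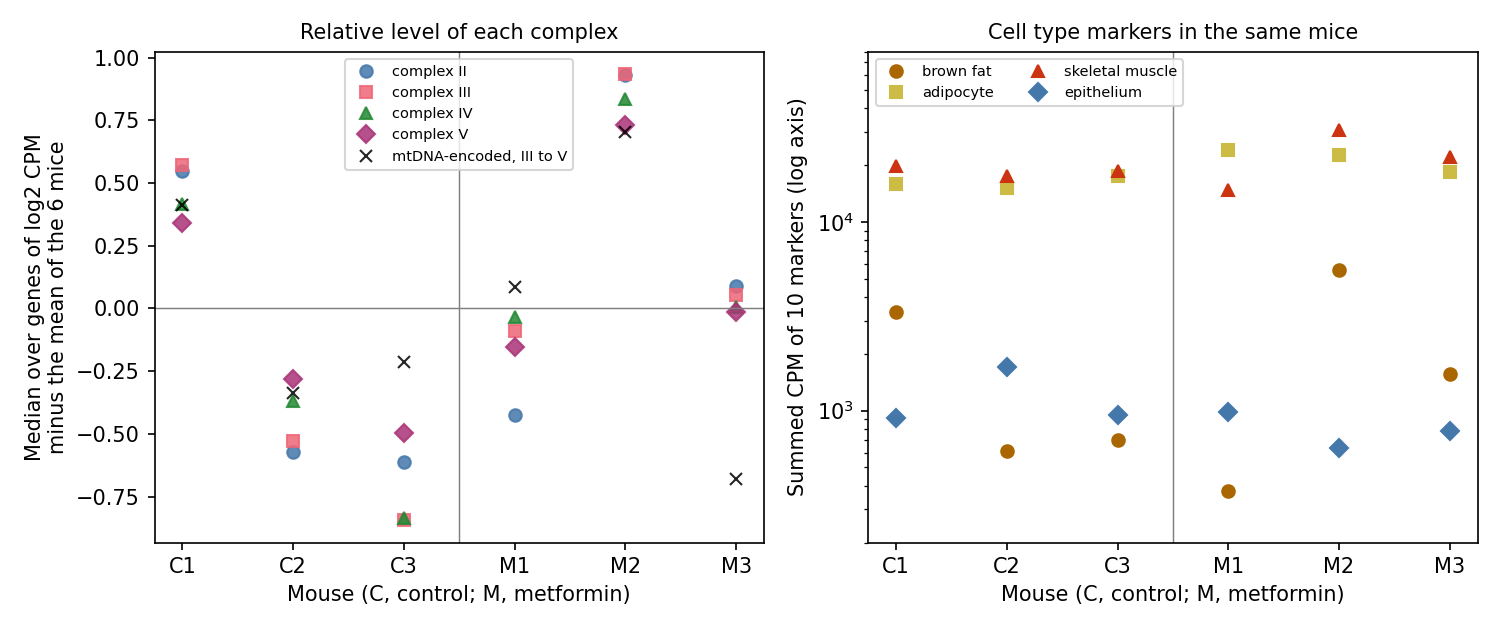
Left, median over the genes of each complex of log2 CPM minus the mean of the 6 mice; right, summed CPM of 10 markers of each cell type on a log axis, both by mouse (C, control; M, metformin). Complexes II to V are highest in M2 and C1, as is the brown fat sum (5590 and 3320 CPM), while the genes of mitochondrial DNA are lowest in M3.

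The low level of control mouse 3 varied with transcript length among the members. Of the 25 members with a transcript under 1000 bases, 24 (96%) were lowest in this mouse, with a median log2 level of -0.86 relative to the 6 mice. Of the 16 longer members, 7 (43.8%) were lowest there, with a median of -0.49. The longer members include Atp5g1, at 4660 bases, whose place by length is uncertain. Its control means of 99.6 CPM and 130 FPKM are those of a shorter transcript, beside 195 CPM and 57.3 FPKM for Sdhc, at 3171 bases. The correlation between log2 length and the difference of control mouse 3 from the other 5 mice was r = 0.54 (rho = 0.58) over 41 members, which share their libraries, and is given as a description. Members of similar length also differed from one another. Cycs, at 3123 bases, and Sdhc, at 3171 bases, lay -0.26 and -1.01 from the other 5 mice on the log2 scale. Among the shorter members, Atp5k, at 371 bases, and Atp5h, at 625 bases, lay -2.01 and -0.41 from them.

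Short genes other than the members were also low in control mouse 3. Only the tested members were left out here, so other genes of the respiratory chain, such as those of complex I, were not removed. Of 904 other protein-coding genes under 1000 bases, 57.6% were lowest in control mouse 3, with a median log2 level of -0.45, against 22.2% and 0.02 for 13744 longer genes. Their median log2 fold changes, metformin over control, were 0.26 and -0.01. Among the members the medians were 0.50 for the shorter and 0.29 for the longer genes. Most small subunits of complexes III, IV and V are among the shorter, so in these genes the length of the transcript and the role of the subunit cannot be told apart, and the part of length in the group difference was not tested.

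**Figure D5:**
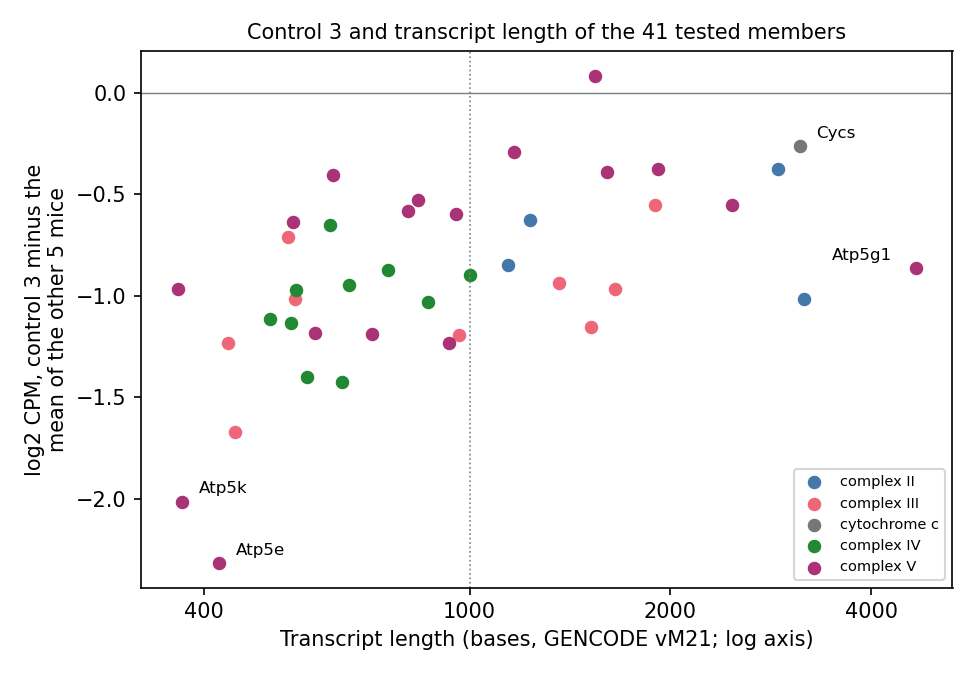
Difference in log2 CPM between control mouse 3 and the mean of the other 5 mice (y) against transcript length (x, log axis, bases in GENCODE vM21) for the 41 tested members, coloured by complex, with a dotted line at 1000 bases. The short members Atp5k and Atp5e lie lowest, with r = 0.54 over all members. Among the long ones, Cycs lies near 0, while Sdhc lies at -1.01.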

How the data were processed

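RNA of 1 mammary gland sample per mouse, 3 control and 3 metformin, was sequenced, and the group of each library was read from its label. The authors' service provider trimmed adapters, dropped low-quality reads and mapped paired reads to GRCm38, and the submitters' processing notes name HISAT2, StringTie and mm10. The deposited counts are whole numbers per feature from the authors, not normalized between libraries. Which tool counted the reads, with which annotation and whether by strand, is not given in the sources used here. As deposited, FPKM values, which the authors computed per gene and library, served for levels between genes and as an alternative.

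The test was the quasi-likelihood F test of edgeR 4.0.16 in R 4.3.3, after filterByExpr and TMM, with Benjamini-Hochberg adjustment over 15925 features. The SE is the absolute log2 fold change over the square root of the F statistic. Members and gene lists were chosen with earlier results of these data known. In each complex, values per mouse are given for up to 4 members with the smallest p and the most abundant one, for the c-subunit genes and for all tested tissue isoforms. In the other lists they are given for up to 2 genes with the smallest p, but not in the epithelial, milk, endothelial and leukocyte lists. Genes that met the criteria of the study are named. Atp5e, Atp5s, Usmg5, Atpif1, Nrf1, Gabpa and Ucp1 were added after their values were seen. Transcript lengths are those of the principal transcript in GENCODE vM21, and similar transcripts were found with BLAST 2.17.0 at 95% identity over 150 bases or more. The transcript length behind each FPKM value is not stated, so places in the FPKM order may depend on it. Promoter sequences are from RefSeq, GRCm38.p6.

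Alternatives were DESeq2 1.42.0, limma-voom (limma 3.58.1) with quality weights, edgeR with upper quartile or RLE scaling, edgeR without the filter, a minimum of 10 counts in every sample, the replicate number as a block, limma on log2 FPKM (pseudocount 1 or 0.1, or no filter) and each mouse left out in turn. A fit without control mouse 1 and metformin-treated mouse 2, which had the highest brown fat marker sum of their groups, was added after the values were seen. The scripts were tested on simulated counts.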

Additional observations from a re-analysis of the deposited data

How the results depend on the processing

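No member had an adjusted p under 0.05 or met the criteria of the study under any alternative tried, and the median log2 fold change of the members lay between 0.14 and 0.47 under the alternatives that kept all mice, and between 0.09 and 0.85 with each mouse left out in turn. At an unadjusted p under 0.05, 0 members were higher with edgeR (2.68% of all features), 1 with DESeq2 (3.17%) and 2 with the replicate block (1.97%), Atp5g3 and Atp5k. Without both control mouse 1 and metformin-treated mouse 2, a choice made after the values were seen, 3 were higher (1.67% of all features). With each mouse left out, 0 to 14 were, the 14 without control mouse 1 (3.14% of all features). Members with an estimate above 0 numbered 26 to 41 with each mouse left out, the 26 without metformin-treated mouse 2, and 30 with limma-voom. With limma-voom the log2 fold change was -0.06 for Sdhb, -0.08 for Sdha, -0.13 for Cycs, -0.07 for Uqcrc1, -0.07 for Atp5b and -0.22 for Atp5g1, and without control mouse 1 and metformin-treated mouse 2 it was -0.08 for Atp5g1. With each mouse left out it ran from -0.01 to 0.9 for Sdhd, -0.1 to 0.94 for Sdhb, -0.05 to 0.69 for Sdha, -0.28 to 0.65 for Cycs, -0.08 to 1.1 for Uqcrc1, -0.06 to 0.63 for Atp5b and -0.33 to 0.42 for Atp5g1. The causes of these changes were not tested. The values gave no sign that replicate numbers pair the mice, since the deviations of same-numbered mice correlated at -0.35, -0.14 and -0.01. With 3 mice per group this cannot exclude a pairing in the design. The block moved the number of all features at an unadjusted p under 0.05 from 1199 to 758. Over all features, the number meeting the criteria of the study was 271 with edgeR and 98 to 666 under the alternatives, and at an adjusted p under 0.05 it was 0 with edgeR, 200 with DESeq2 and 96 with edgeR without control mouse 3. Each library held at least 35375365 counts, and the 95% interval of each member held both 0 and a 1.5-fold increase.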
